A study of Homo sapiens with 4 samples.

Results

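To describe which motor protein mRNAs came down with IGF2BP3, the peaks lying in exons of the kinesin genes were taken from RNA immunoprecipitation followed by sequencing (RIP-seq) of OE-19 cells. The kinesins were the GENCODE 44 protein-coding genes with a symbol of KIF or KIFC followed by a digit, 42 of 20046 protein-coding genes. A peak belonged to a kinesin when its summit, the base of highest signal, lay in one of its exons. This gave 187 of 44622 peaks in replicate 1 and 195 of 42723 peaks in replicate 2.

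OE-19 is an established human cell line grown from an adenocarcinoma at the junction of esophagus and stomach. The series held 4 samples of this line, with no genetic change or drug in the labels: 2 replicates of RIP with an anti-IGF2BP3 antibody, each with its own peak list, and 2 replicates of RIP input, the lysate saved before the pull-down. Values of the input libraries were not analysed here. The labels give UV fixation of the cells for these samples, a step that the RIP method of the study does not mention. The study calls its replicates biological. Neither its text nor the labels say whether they were separate cultures.

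Kinesins are motor proteins that walk along microtubules or take them apart, using a conserved motor domain that binds ATP through a P-loop and senses the nucleotide through the switch II loop. Some carry vesicles, mitochondria and other organelles through the cell. Others build the mitotic spindle, move chromosomes and complete cell division, which makes several of them markers of dividing tumor cells. IGF2BP3 is an RNA-binding protein that is low in most adult tissues, is made again in many carcinomas, and is known for binding and stabilizing mRNAs.

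Sequences at a peak found by both replicates are shown first for 6 kinesins. In each, it is the overlapping pair with the highest mean fold, although a peak found in a single replicate, or paired less well, was stronger in some of them. KIF1B, whose values follow further on, is not shown. Each line is the spliced mRNA, 5′ to 3′ in DNA letters, from 50 nt before to 50 nt after the replicate 1 summit, read from the GENCODE 44 transcripts of hg38. Capitals mark GGAC, the core of the motif that the study names for IGF2BP3. ACACA, a CA-rich string, was also searched.
KIF18A exon 6: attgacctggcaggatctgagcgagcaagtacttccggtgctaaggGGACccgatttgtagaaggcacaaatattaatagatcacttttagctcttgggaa
KIF24 exon 11: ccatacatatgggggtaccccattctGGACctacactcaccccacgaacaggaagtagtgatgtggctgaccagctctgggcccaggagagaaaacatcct
KIF3B exon 6: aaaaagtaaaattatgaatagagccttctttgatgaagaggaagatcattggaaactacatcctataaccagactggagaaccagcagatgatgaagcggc
KIF2A exon 12: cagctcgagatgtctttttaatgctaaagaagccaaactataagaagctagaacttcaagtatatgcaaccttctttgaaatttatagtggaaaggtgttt
KIF15 exon 7: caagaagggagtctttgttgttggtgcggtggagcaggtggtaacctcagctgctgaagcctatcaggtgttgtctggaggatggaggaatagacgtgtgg
KIF21B exon 31: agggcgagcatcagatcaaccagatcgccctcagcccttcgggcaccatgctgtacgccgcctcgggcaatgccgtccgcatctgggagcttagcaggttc

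The KIF18A window belongs to chr11:28088602-28088647 on the minus strand, holds 1 GGAC and covers codons 257 to 289, which include the switch II motif of the motor domain. The KIF24 window, from chr9:34255779-34256648 on the minus strand, was the only one of these 6 with TGGAC, the full motif. The KIF3B window at chr20:32326763-32326890 (plus strand), the KIF2A window at chr5:62362441-62362529 (plus strand), the KIF15 window at chr3:44786433-44786571 (plus strand) and the KIF21B window at chr1:200977240-200977358 (minus strand) held none of these strings. The window of the strongest KIF1B pair, in exon 36 and not shown, held 1 GGAC and 1 ACACA but no TGGAC. All 6 summits shown lay in coding exons. The strongest pairs of KIF13B and KIF18B lay close to the stop codon and are not shown. The location of the 6 summits therefore depends on which pairs were shown and does not describe the strongest pairs in general. The replicate 2 summit of the pair was at most 17 nt away in KIF3B, KIF2A, KIF15 and KIF21B, but 84 nt away in KIF18A and 456 nt away in KIF24, outside the letters shown. A string in a window is a description and not a bound site.

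Of the 42 kinesins, 22 had an exonic summit in both replicates, or 52.4%, where 28.0% of all protein-coding genes did. A further 4 had 1 in a single replicate, and 16 had none. The median kinesin coding sequence was 3042 nt, against 1272 nt over all protein-coding genes, and over all genes longer coding sequences had peaks more often. Among genes with 2000 to 3000 coding nt, 9 of 18 kinesins (50%) and 44% of all genes had summits in both replicates. Between 3000 and 4000 nt the shares were 3 of 7 kinesins (42.9%) and 51.1%, and from 4000 nt upward they were 10 of 14 (71.4%) and 54.1%. Below 2000 nt the shares were 0 of 3 kinesins and 20.9%. The kinesin counts include KIF9, between 2000 and 3000 nt, and KIF7, in the class from 4000 nt. The only summits of these 2 lay outside their canonical mRNAs and also in exons of other genes. Within length classes the kinesin share thus lay on either side of the share over all genes. No test was made on these counts.

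Most kinesin peaks were modest. The fold enrichment, the ratio of RIP signal to local background computed by the authors' caller, had a median of 2.83 in replicate 1 and 2.77 in replicate 2 over kinesin peaks, and of 2.95 and 2.93 over all peaks in protein-coding exons. A q-value, the caller's p corrected for multiple testing, of at most 0.05 was reached by 12 of 187 kinesin peaks (6.42%) and by 16 of 195 (8.21%), where 10.2% and 7.81% of all such peaks did. A q of 1 was given to 113 and 133 kinesin peaks. KIF1B and KIF18A together held 10 of the 12 and all 16 peaks within that limit, and these 2 mRNAs alone had one in both replicates. They made up 4.76% of the kinesins, next to 4.93% of all protein-coding genes. KIF1C and KIF3B had 1 such peak each, in replicate 1.

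**Figure D1:**
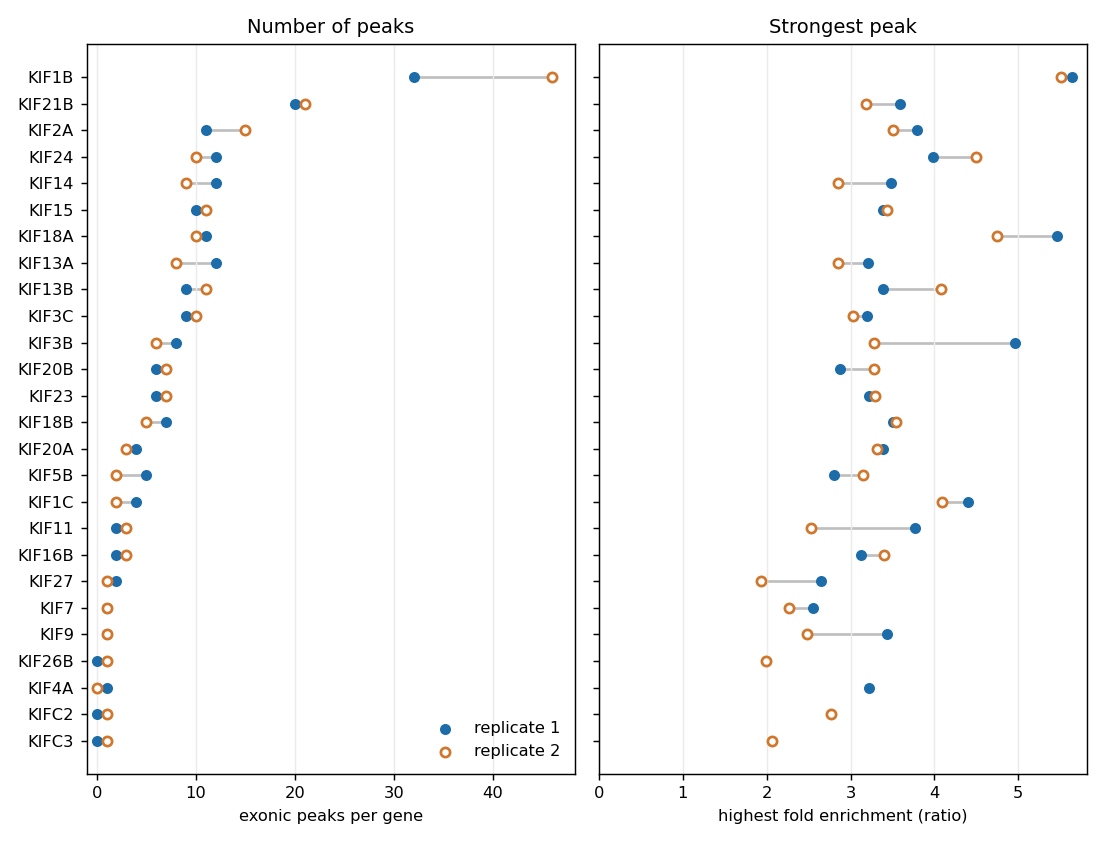
Number of exonic peaks (left) and highest fold enrichment (right, ratio to local background) of the 26 kinesins with a peak in either replicate, filled circles for replicate 1 and open circles for replicate 2, with a line joining the replicates. KIF1B stands first in both panels, with 32 and 46 peaks and folds up to 5.64 and 5.51, and the kinesins at the bottom had 1 peak in a single replicate.

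KIF1B carried by far the most peaks of the family. It encodes a kinesin-3 motor known for carrying mitochondria and synaptic vesicle precursors. KIF1B had 32 exonic peaks in replicate 1 and 46 in replicate 2, which is 17.1% and 23.6% of all kinesin peaks and 3.59 ± 0.912 peaks per kb of its 10855 nt mRNA (SD, n = 2). By mean number of peaks it ranked 36 among the 5619 protein-coding genes with summits in both replicates, by peaks per kb 235, and by mean highest fold 437. It thus stood higher by number of peaks than by strength. Among its peaks, 7 and 13 reached a q of at most 0.05, and all of these lay in coding exons.

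The KIF1B peaks ran through nearly the whole coding sequence. Summits fell in 28 of the 49 exons of the canonical transcript in replicate 1 and in 37 in replicate 2, with 25 exons hit in both. The strongest pair lay in exon 36, with folds of 5.64 and 5.17, q of 0.000224 and 0.00141 and summits 5 nt apart. Exon 13 followed with folds of 5.37 and 4.04, q of 0.00356 and 0.0047 and summits 2 nt apart. In exon 33 the folds were 4.70 and 3.91, with q of 0.0105 and 0.0342. Exons 36, 13 and 33 were thus within the q limit in both replicates. The replicates did not rank the exons alike. In exon 39 the same place gave a fold of 2.52 in replicate 1, with a q of 1, and 5.51 in replicate 2, with a q of 0.000474. The 5016 nt 3′ untranslated region (UTR) held 3 summits in replicate 1 and 8 in replicate 2. The replicate 1 peaks there were 2281, 746 and 946 nt wide, so the number of summits does not show how much of the region peaks covered.

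KIF1B makes a long protein of 1816 amino acids and a short one of 1153, which share the motor domain and differ in the tail. Exonic bases common to both transcripts had 9 and 13 summits, or 3.81 and 5.50 per kb. Bases found only in the long transcript had 21 and 32 summits, or 2.47 and 3.77 per kb, and among them was the exon 36 peak. The 5435 nt found only in the short transcript, most of them untranslated, had 2 and 1 summits, or 0.368 and 0.184 per kb, with folds no higher than 2.41 and 2.12. In both replicates the short-only bases had the fewest summits per kb of the 3 classes. Other KIF1B transcripts share many of these bases, and the level of each transcript in these cells was not analysed here.

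The other kinesin-3 mRNAs were spread over a wide range. KIF13A, a carrier of endosomal cargo, had 12 and 8 peaks with folds up to 3.21 and 2.85, and KIF13B, a vesicle motor, had 9 and 11 with folds up to 3.38 and 4.08. KIF14, which acts at the midbody in cytokinesis, had 12 and 9 with folds up to 3.49 and 2.85. KIF16B, a motor of early endosomes, had 2 and 3, none of them overlapping between replicates. KIF1C, the closest relative of KIF1B in this set besides KIF1A, had 4 peaks in replicate 1 and 2 in replicate 2 over an mRNA of 7917 nt. Its strongest peak in replicate 1, in exon 20 of 23 at chr17:5020556-5020594, had a fold of 4.40 and a q of 0.0179. Replicate 2 gave a highest fold of 4.09 with a q of 0.363, and no KIF1C peak overlapped between the replicates. KIF1A, mainly known from neurons, had none, although its coding sequence of 5376 nt is nearly as long as that of KIF1B at 5451 nt. Kinesin-3 as a family gave 71 and 79 peaks, with 6 of its 7 genes hit in both replicates.

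**Figure D2:**
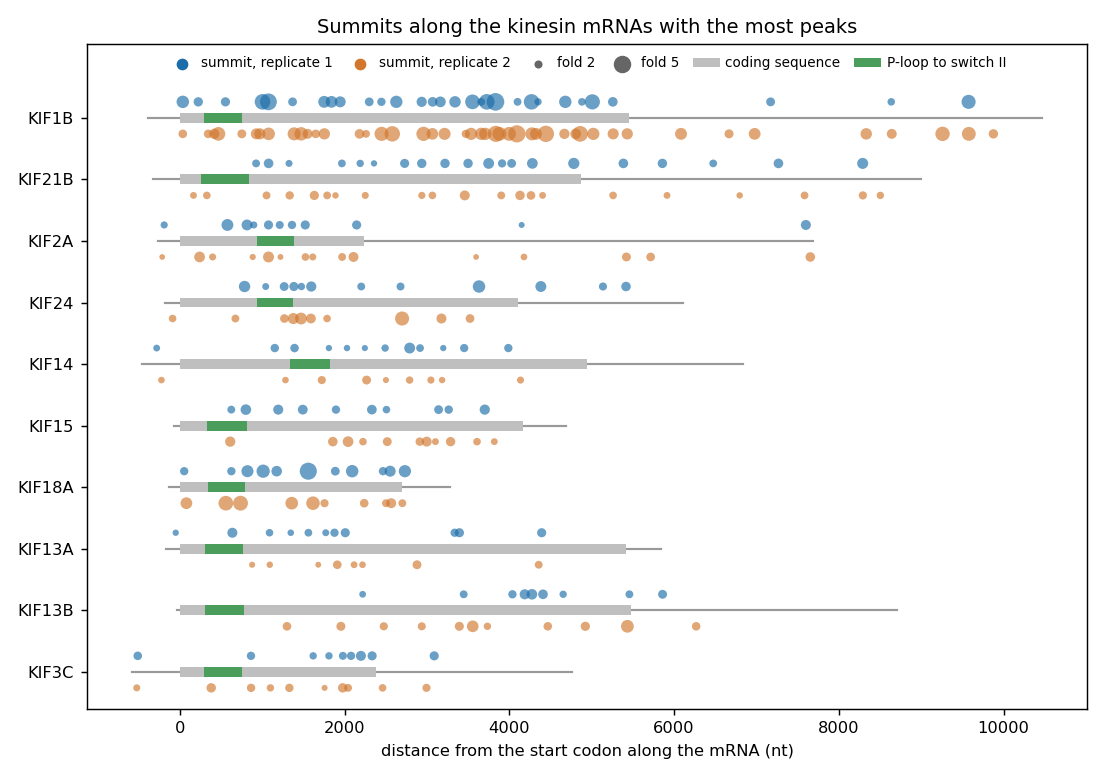
Summits along the canonical mRNAs of the 10 kinesins with the most peaks, as distance in nt from the start codon, blue above the line for replicate 1 and orange below it for replicate 2, with point area growing with fold enrichment, the coding sequence in grey and the stretch from P-loop to switch II in green. Summits of KIF1B lie across its coding sequence in both replicates. The long 3′ UTRs of KIF1B, KIF2A and KIF21B carry fewer summits for their length than the coding sequences of the same mRNAs. A peak has 1 summit whatever its width, and in the 3′ UTR of KIF1B a single peak spanned up to 2281 nt.

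Both mitotic and transport kinesins were recovered. Of 15 kinesins with a known role in spindle assembly, chromosome movement or cytokinesis, 9 (60.0%) had summits in both replicates, with 70 peaks in each. Of 15 cargo transporters, 8 (53.3%) did, with 81 and 90 peaks, and of the 12 others 5 (41.7%) did, with 36 and 35 peaks. These 5 include KIF7 and KIF9, whose only summits lay outside their canonical mRNAs and also in exons of other genes. The share over all protein-coding genes was 28.0%. Peaks with a q of at most 0.05 were 4.29% of the mitotic peaks in each replicate, 11.1% and 14.4% of the transport peaks, and none of the others, next to 10.2% and 7.81% of all peaks in protein-coding exons. The mitotic ones were all from KIF18A, and all but the 2 of KIF1C and KIF3B in the transport group were from KIF1B.

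KIF18A, a kinesin-8 that damps the movement of chromosomes at metaphase, was the mitotic kinesin with the strongest peaks. It had 11 peaks in replicate 1 and 10 in replicate 2, with folds up to 5.47 and 4.75, and 3.07 ± 0.207 peaks per kb (SD, n = 2), rank 430 of 5619 genes. The strongest peak differed between the replicates. In replicate 1 it lay in exon 11 of 17 at chr11:28069276-28069441, with a q of 0.000688, and had no overlapping peak in replicate 2. In replicate 2 the highest fold was in exon 6, where replicate 1 had a fold of 3.86 with a q of 0.51, and the lowest q, 0.00267, was in exon 12. The summits in exons 11 and 12 were 6799 nt apart in the genome but 57 nt apart on the spliced mRNA. Peaks cut by introns can therefore miss each other in the genome while lying close on the RNA. Its relative KIF18B, which works at the tips of astral microtubules, had 7 and 5 peaks with folds up to 3.51 and 3.54, and KIF19, the third kinesin-8, had none.

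Among the motors of the spindle midzone, all 3 kinesin-6 genes had summits in both replicates. KIF23, a subunit of centralspindlin, had 6 and 7 peaks, KIF20B also 6 and 7, and KIF20A, which brings the chromosomal passenger complex to the midzone, 4 and 3. Their folds reached at most 3.38 in replicate 1 and 3.32 in replicate 2. KIF11, the kinesin-5 that pushes spindle poles apart, had only 2 and 3 peaks with folds up to 3.76 and 2.53. KIF15, which can stand in for KIF11, had 10 and 11 with folds up to 3.39 and 3.43, at 2.21 ± 0.149 peaks per kb (SD, n = 2) against 0.498 ± 0.141 for KIF11. All KIF15 summits lay in its coding sequence.

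Kinesin-13 proteins take microtubules apart at their ends. KIF2A had 11 and 15 peaks with folds up to 3.80 and 3.50, and KIF24, which acts at centrioles, had 12 and 10 with folds up to 3.98 and 4.50. KIF2C and KIF2B had none. Several KIF2A summits, among them both 3′ UTR summits of replicate 1 and 4 of the 5 of replicate 2, also lay in exons annotated to DIMT1, and the peak lists carry no strand, so that the RNA of origin cannot be told apart there. KIF2A summits in exons 7, 9, 10 and 12 to 15 in replicate 1 lay in no other gene.

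KIF21B, a kinesin-4 that limits microtubule growth, had the most peaks after KIF1B but none within the q limit. There were 20 peaks in replicate 1 and 21 in replicate 2, at a density of 2.20 ± 0.0757 per kb (SD, n = 2), with folds up to 3.59 and 3.18 and a lowest q of 0.0904 and 0.108. Summits fell in 10 of its 35 exons in both replicates. Its 3′ UTR of 4131 nt had 5 and 6 summits, next to 3 and 8 in the longer one of KIF1B. The widest KIF21B peak there spanned 1260 nt in replicate 1 and 552 nt in replicate 2. KIF21A, its closest relative, had none.

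In kinesin-2, whose motors work in cilia and in vesicle transport, KIF3C had 9 and 10 peaks with folds up to 3.20 and 3.02, and KIF3B had 8 and 6. The strongest KIF3B peak, in exon 6 of 9, had a fold of 4.96 with a q of 0.0105 in replicate 1 and 2.92 with a q of 1 in replicate 2. KIF3A, the partner of both in the motor complex, had none, nor had KIF17. In kinesin-1, the main carrier of organelles toward the cell periphery, KIF5B had 5 and 2 peaks with folds up to 2.81 and 3.15 and none overlapping between replicates. The neuronal forms KIF5A and KIF5C had none.

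The remaining kinesins had 1 or 2 peaks in a replicate at most. KIF27 had 2 and 1 peaks that did not overlap. KIF7, a regulator of Hedgehog signaling, and KIF9, a motor of cilia, had 1 in each replicate, but these summits also lay in exons of TICRR and of KLHL18 and outside the canonical KIF7 and KIF9 mRNAs, so that 20 kinesins had summits on their own canonical mRNA in both replicates. KIF4A, a chromokinesin, had 1 in replicate 1 with a fold of 3.22. KIF26B, KIFC2 and KIFC3 had 1 each in replicate 2, with folds of 2.0, 2.77 and 2.06. KIF4B is an intronless copy of KIF4A, and reads of the pair can be assigned to either.

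The 16 kinesins with no exonic summit were KIF1A, KIF2B, KIF2C, KIF3A, KIF4B, KIF5A, KIF5C, KIF6, KIF12, KIF17, KIF19, KIF21A, KIF22, KIF25, KIF26A and KIFC1. Among them were 5 mitotic kinesins, with KIF2C, KIF22 and KIFC1, the minus-end motor that bundles spindle microtubules, and 5 transporters. A peak needs the mRNA to be present and sequenced deeply enough, and neither expression nor read depth was available, so that a missing peak does not show a lack of binding. Of 6 mRNAs known from epithelial and gastroesophageal tumor cells, EPCAM, KRT8, KRT18, KRT19 and ERBB2 had no peak and CDH1 had 4 and 8, and their expression was not measured here. IGF2BP3 mRNA itself had 14 and 12 peaks with folds up to 6.23 and 6.47.

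How far the replicates placed the same kinesin peaks was asked next. Of the kinesin peaks, 105 of 187 (56.2%) in replicate 1 and 117 of 195 (60.0%) in replicate 2 overlapped a peak of the other replicate by at least 1 bp, where 61.0% and 64.8% of all peaks in protein-coding exons did. They formed 103 pairs with both summits in a kinesin exon, 27 of them in KIF1B, 11 in KIF21B, 8 each in KIF24 and KIF2A and 7 in KIF18A. The median distance between paired summits was 19 nt, and in 76 pairs (73.8%) it was at most 50 nt. In 3 pairs, in KIF1B, KIF2A and KIF18B, both replicates gave the same base. Of the 22 kinesins with summits in both replicates, 17 (77.3%) had at least 1 such pair, where 81.8% of the 5619 protein-coding genes with summits in both did. KIF1C, KIF5B, KIF7, KIF16B and KIF27 had none.

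The fold of a pair was less well kept than its place. Log2 folds of the 103 pairs had a Pearson's r of 0.370 and a Spearman's rho of 0.312. Replicate 1 was higher in 54 pairs and replicate 2 in 49. The number of peaks per kinesin was much closer between replicates, with r = 0.961 and rho = 0.940 over all 42 genes, and r = 0.957 and rho = 0.897 over the 22. For the highest fold per gene over the 22, r was 0.727 and rho 0.618. These correlations run across peaks or genes of the same 2 libraries. The peaks and genes are not independent replicates, and the values of both libraries share the length and level of each mRNA. Some fold values were also repeated, with 103 distinct values among the 187 kinesin peaks of replicate 1 and 122 among the 195 of replicate 2.

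**Figure D3:**
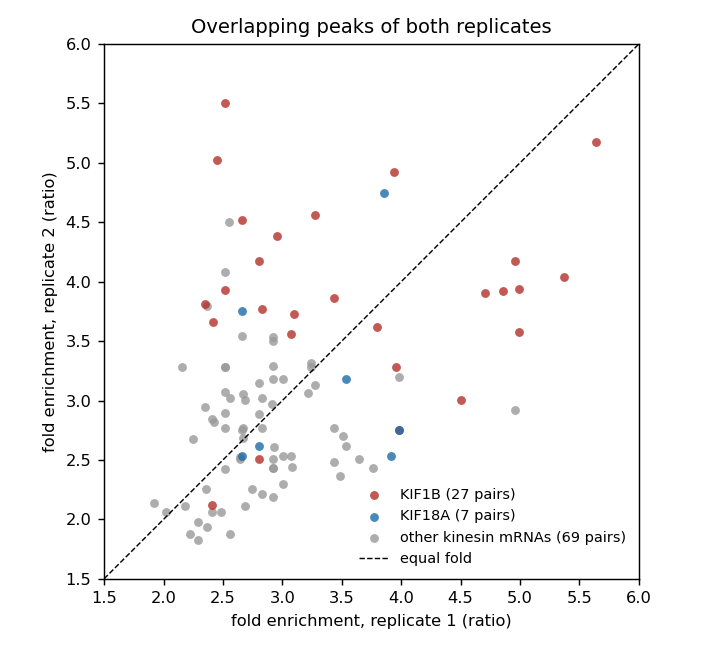
Fold enrichment (ratio) in replicate 1 and replicate 2 of the 103 overlapping kinesin peak pairs, red for KIF1B, blue for KIF18A and grey for the other kinesins, with a dashed line where both are equal. The points scatter widely around the line, and the pair high in both replicates, with 5.64 and 5.17, is exon 36 of KIF1B.

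Peaks found by both replicates were broader, which the definition favors, since a wider peak overlaps another more easily. Their median width was 108 nt in replicate 1 and 103 nt in replicate 2, against 83.5 nt and 72.5 nt for the peaks found once. Replicate 1 gave them a median fold of 2.83, next to 2.80 for the rest, and replicate 2 gave 2.92, next to 2.62. The median width of all kinesin peaks, 95 and 91 nt, lay below that of all peaks in protein-coding exons, 115 and 109 nt. The exons they lay in had a median length of 153 and 159 nt.

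Along the mRNA, kinesin summits were concentrated in the coding sequence (CDS). The 200 nt before and after each stop codon were set apart as a window of their own. The summits were the 178 and 186 on the canonical mRNA of any kinesin, including kinesins hit in a single replicate. Left out were summits also on the canonical mRNA of another protein-coding gene, among them UTR summits of KIF2A. The CDS held 79.4% ± 1.03 of summits (SD, n = 2). It made up 57.0% of the mRNA length of the 20 kinesins with located summits in both replicates, over which all lengths were taken. The 3′ UTR held 10.7% ± 0.833 of summits on 32.8% of the length. The stop codon window held 7.71% ± 1.02 on 6.43% of the length, and the 5′ UTR 2.21% ± 0.846 on 3.74%. Over all mRNAs the CDS share was 71.9% ± 1.13 on 41.1% of the length and the 3′ UTR share 16% ± 0.899 on 47.3%. The kinesins had a longer coding part, and in both sets the CDS held more and the 3′ UTR less of the summits than its share of the length. Each peak counts as 1 summit whatever its width, so these shares do not measure the bases that peaks covered.

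**Figure D4:**
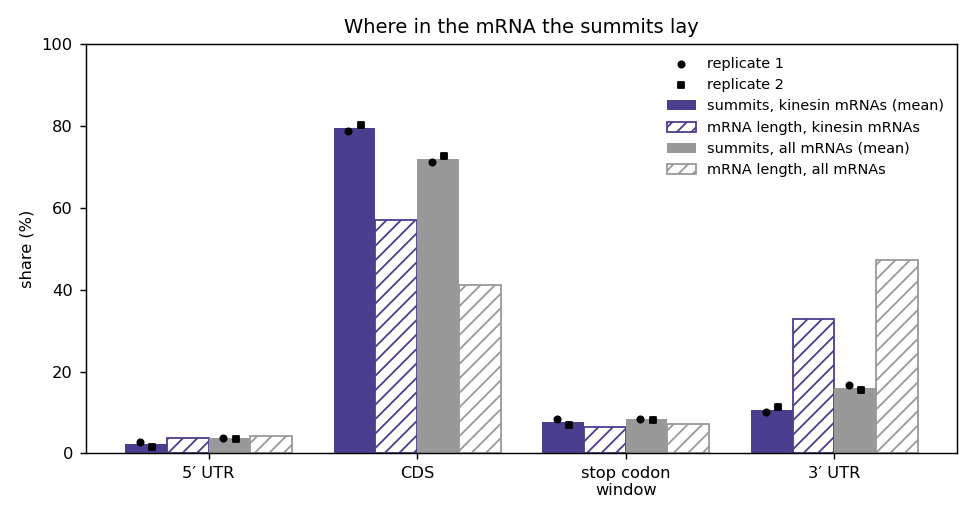
Share of summits (%, filled bars, mean of 2 replicates, with circles for replicate 1 and squares for replicate 2) and share of mRNA length (%, hatched bars) in the 5′ UTR, the CDS, the stop codon window and the 3′ UTR, for kinesin mRNAs in purple and all mRNAs in grey. The CDS bar is the tallest for kinesins, with 79.4% of summits on 57.0% of the length, and the 3′ UTR shows the reverse with 10.7% on 32.8%.

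All 20 of these kinesins had a CDS summit in both replicates. Counts of genes by region are not given for all mRNAs, where the CDS held 71.9% of summits. The counts in this paragraph are therefore not read as particular to kinesins. In 6 of them, KIF13B, KIF1B, KIF21B, KIF2A, KIF3B and KIF3C, the 3′ UTR had a summit in both. For KIF2A, all replicate 1 summits in the 3′ UTR also lay in DIMT1 exons. In 8 kinesins the stop codon window had a summit in both, namely KIF13B, KIF18A, KIF18B, KIF1B, KIF20B, KIF23, KIF2A and KIF3C. KIF1C had none in its 4250 nt 3′ UTR in either replicate. The 5′ UTR had a summit in both replicates in KIF14, KIF2A and KIF3C alone, and that of KIF2A also lay in an exon of another annotated gene.

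Within the CDS, cut into 5 equal parts, the first was the poorest. It held 9.93% of the 151 CDS summits of replicate 1 and 12.6% of the 159 of replicate 2, next to 23.8% and 24.5% in the last part. Over all mRNAs the first part held 15.7% and 16.2% and the last 21.8% and 21.3%. In most kinesins the motor domain is encoded near the start of the CDS, so the summits were also sorted by the P-loop and switch II motifs found in the translated sequences. From P-loop to switch II there were 15 summits in each replicate over the mRNAs of the 22 kinesins with summits in both replicates, or 1.34 per kb. The lengths include KIF7 and KIF9, which had no summit on their canonical mRNA. Before the P-loop there were 10 and 9, or 1.04 ± 0.0773 per kb (SD, n = 2). After switch II there were 125 and 132, or 2.10 ± 0.081 per kb, and these were 83.3% and 84.6% of the CDS summits on 75.0% of the coding length. The part after switch II holds the rest of the motor domain as well as the stalk and tail, whose border was not located. In both replicates it had more summits per kb, pooled over the mRNAs, than the stretch from P-loop to switch II. KIF1B alone gave 24 and 32 of the summits after switch II. Single mRNAs did not all go this way. In replicate 1, KIF2A had 3 summits on the 450 nt from P-loop to switch II and 2 on the 846 nt after it. This split was not made over all mRNAs, where the first part of the CDS was also the poorest.

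The motif strings were about as frequent at kinesin summits as elsewhere. In windows of 101 nt around CDS summits, GGAC on the mRNA strand was present in 33.1% and 32.7% of kinesin windows, in 33.6% and 33.5% of windows over all mRNAs, and in 31.3% of windows centred on every kinesin CDS position. TGGAC, which contains GGAC, was present in 10.6% and 13.8% of kinesin windows, in 14% of windows all mRNAs in both replicates and in 11.2% at every kinesin position. For ACACA the shares were 10.6% and 10.1%, 11% and 10.7%, and 10.9%. The GC content of the kinesin windows was 47.9% and 48.6%, next to 47.8% for all kinesin positions. In these windows the shares at kinesin summits differed little from those over the kinesin coding sequence as a whole, and no test was made.

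Set beside the other motor families and the kinesin partners, the kinesins lay between myosins and dyneins in peak density and fold. Among myosins, the motors of actin filaments, 11 of 25 genes (44%) had summits in both replicates, with 220 and 213 peaks. The share over all protein-coding genes was 28.0%. Over the genes with summits in both, the median number of peaks per kb of mRNA was 2.44 and 2.01 for myosins and 1.35 and 1.23 for kinesins. For dyneins, which move toward the minus ends of microtubules, it was 0.645 and 0.492. The dynein set held heavy, intermediate and light chain genes, with DYNC, DYNLL, DYNLRB, DYNLT, DNAH and DNAI symbols. The median coding sequence was 5229 nt over all the myosins, 3042 nt over the kinesins and 2169 nt over the dyneins. Dyneins had 8 of 37 genes (21.6%) with summits in both and 30 and 25 peaks. A q of at most 0.05 in both replicates was found in 5 myosins, 2 kinesins and no dynein, next to 4.93% of all protein-coding genes. Over all genes with summits in both, the median peak density was 1.18 and 1.12 per kb, close to that of the kinesins. Median fold enrichment was 2.95 and 3.02 for myosins, 2.83 and 2.77 for kinesins and 2.64 and 2.51 for dyneins. The differences between families were not tested.

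Of 21 mRNAs for kinesin light chains, adaptors and related motors, 11 (52.4%) had summits in both replicates, where 28.0% of all protein-coding genes did. Their median coding sequence was 2379 nt, against 1272 nt over all protein-coding genes. FYCO1, an adaptor that links kinesin to autophagosomes, had 19 peaks in each replicate with folds up to 5.81 and 5.35 and a lowest q of 3.73e-05 and 0.00107. TRAK2, which joins kinesin-1 to mitochondria, had 12 and 14 peaks with a lowest q of 0.0225 and 0.0294, and its relative TRAK1 had 9 and 9 with folds up to 4.39 and 4.80. MADD, an adaptor of KIF1A and KIF1B, had 9 and 10 peaks with folds up to 5.17 and 3.51. The light chains of kinesin-1 were nearly empty, with 1 peak of KLC1 in each replicate and none of KLC2, KLC3 and KLC4. CENPE, the kinesin-7 of the kinetochore, which carries no KIF symbol, had 6 and 5 peaks on 8541 nt.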

How the data were processed

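IGF2BP3 RIP-seq was carried out in OE-19 cells, and each of the 2 RIP replicates has a peak list called on its own. Per the study's methods the authors mapped reads to hg38 with Tophat2 and called peaks with MACS2 at default settings, whereas the processing notes of the labels name fastp, HISAT2 and MACS2. Which library served as control is not given in the sources used here. The deposited fold enrichment is a ratio to local background, the deposited −log10 p and −log10 q values are those of the caller, and the deposited score was not used. The largest p in the lists was close to 0.01, and many peaks had a q of 1, unlike the default q limit of MACS2, and the limit used is not given in the sources used here. Read depth is unknown, so no counting interval was given.

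Summits were assigned to GENCODE 44 exons without regard to strand, and positions used the canonical coding transcript. An overlap of 1 bp or more made peaks shared. Named kinesins were the 10 highest by mean highest fold, the 10 highest by mean peak number and those with a q of at most 0.05 in both replicates, and the remaining kinesins with peaks were described by family after their values were seen. The kinesins and all lists were chosen with earlier results of these data known. No test was made. Alternatives were limits of q at 0.05 and fold of at least 5, other overlap, exon, transcript and window rules, each replicate alone and, added after seeing the data, leaving out KIF1B and distance on the mRNA. Scripts were tested on simulated data. Python 3.11.15, pandas 2.3.3, matplotlib 3.10.9 and bedtools 2.31.1 were used. Some items are not reported here.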

Additional observations from a re-analysis of the deposited data

Results flagged for a closer look

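Summits inside introns of the kinesin genes were outside the main measurement, which counts exons. There were 4 in replicate 1 and 5 in replicate 2, and they were flagged because they were not counted among the kinesin peaks. They lay in KIF1B (2 peaks), KIF14 and KIF23 in replicate 1 and in KIF14, KIF15, KIF21B, KIF24 and KIF2A in replicate 2, with folds up to 3.43 and 2.93 and a lowest q of 1 and 0.435. In each replicate 2 of them overlapped a peak of the other. The overlapped peaks had exonic summits. In replicate 2 they lay in exons 8 and 44 of KIF1B. In replicate 1 they lay in exon 31 of KIF15 and exon 7 of KIF2A. Peaks with these intronic summits thus served as partners in the overlap shares.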

How the results depend on the processing

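With 2 replicates, unknown depth and most kinesin peaks at a q of 1, single kinesin peaks are uncertain. With peaks of q at most 0.05, 2 kinesins had summits in both replicates, with a mean of 14 peaks per replicate, 21.9% shared, a median fold of 4.75, and 95.8% of summits in the CDS, 0% in the 3′ UTR and 4.17% in the stop codon window. With folds of at least 5 these values were 1, 3.5, 29.2%, 5.34, 100%, 0% and 0%. Both limits leave few peaks. An overlap of 50% of both peaks gave 31.7% shared, and a summit within 100 nt on the same mRNA gave 52.9%. Without KIF1B the shared share was 52.7%, the median fold 2.71 (2.79 and 2.62) and the 3′ UTR share 9.68%, while 21 kinesins and a mean of 152 peaks were left. The transcript with the longest CDS gave 83.1% in the CDS and 6.40% in the 3′ UTR, and a stop codon window of 100 nt gave 4.13%. Counting any overlap with an exon, or the peak midpoint, gave 22 kinesins each. Each replicate alone gave 187 and 195 peaks, 56.2% and 60.0% shared, median folds of 2.83 and 2.77, and CDS shares of 78.7% and 80.1%. No paired analysis was possible because no result comes from a test.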
